A study of Mus musculus with 6 samples.

Results

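The 44 mouse genes described here belong to the interferon response, and they were followed in myeloerythroid progenitors of the bone marrow that carried or lacked signal from a Hes1-GFP reporter. The list holds 40 genes whose products act downstream of interferon and 4 chains of the interferon receptors, which are not themselves induced effectors. A gene was taken into the results where at least 1 probe set of the array is annotated to that gene and to no other, which was so for 40 of the 44 genes, with 67 of the 45037 probe sets tested. Where a gene had several such probe sets, the one with the highest mean over the 6 arrays stands for it, which gives 18193 genes over the whole array. Isg15, Gbp4, Gbp5 and Ifi44 were not analysed here, because no probe set was annotated to them alone.

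The samples were 3 GFP-positive and 3 GFP-negative preparations of marrow cells that lacked lineage markers and Sca-1 and carried c-Kit. All came from male mice of 6 weeks with the genotype Hes1 GFP/WT, so the GFP-negative cells also carry the reporter allele, and the labels list no treatment. RNA, 5 ng per sample, was amplified and hybridised to Affymetrix arrays. The labels do not say whether the 3 preparations of a group came from separate mice, so the p-values reflect the spread among these preparations alone, and that spread may be technical.

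Interferons are secreted proteins that bind receptors made of the chains Ifnar1 and Ifnar2 (type I) or Ifngr1 and Ifngr2 (type II, interferon gamma). Receptor-bound JAK kinases then activate STAT proteins, which bind, together with factors of the IRF family, to an interferon-stimulated response element (ISRE) or to a gamma-activated site (GAS) near their target genes. The products of those targets degrade or mark foreign RNA, block viral entry and release, damage the compartments of intracellular pathogens and load peptides for presentation, and many of them are also expressed in blood stem and progenitor cells without infection.

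The response element is shown first, in the promoters of members from both sides of the result. An ISRE-like motif was searched as GAAANNGAAA on both strands, and a GAS-like motif as TTCNNNGAA, which is its own reverse complement; the second can lie across the first, and matches of the first can overlap each other. RefSeq promoters (assembly GRCm38.p6, 250 bases before to 50 after the start) were matched by gene symbol for 31 of the 40 measured members. The 250 bases before the start of Gbp3 and Gbp2, both lower in GFP-positive cells, are given in full, since they hold the motif and had the largest changes among members that do; the third called member with the motif, Ifitm3, holds it just after its start and is given as 30 bases. The 4 members shown that were not called are given as 30 bases each and were chosen after their values were seen. All are written 5′ to 3′ on the gene's own strand, with an ISRE-like match in capitals. In Gbp3 the capitals cover 2 overlapping matches, and in Oas1a and Irgm1 a second match that overlaps the one in capitals is left in lower case.

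Gbp3, chr3:142559794-142560043, plus strand: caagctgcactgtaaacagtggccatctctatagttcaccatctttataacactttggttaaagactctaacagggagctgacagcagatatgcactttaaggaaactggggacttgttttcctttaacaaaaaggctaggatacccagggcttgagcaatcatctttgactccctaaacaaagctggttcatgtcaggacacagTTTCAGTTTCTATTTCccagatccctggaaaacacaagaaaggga
Gbp2, chr3:142620413-142620662, plus strand: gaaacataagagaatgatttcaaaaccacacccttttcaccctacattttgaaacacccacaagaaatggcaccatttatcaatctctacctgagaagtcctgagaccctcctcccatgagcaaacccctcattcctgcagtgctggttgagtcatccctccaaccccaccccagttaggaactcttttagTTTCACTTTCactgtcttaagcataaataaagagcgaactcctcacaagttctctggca
Ifitm3, chr7:141010706-141010735, minus strand: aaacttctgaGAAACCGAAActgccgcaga
Ifit1, chr19:34640794-34640823, plus strand: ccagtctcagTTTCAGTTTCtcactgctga
Ifit3, chr19:34583397-34583426, plus strand: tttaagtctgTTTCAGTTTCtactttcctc
Oas1a, chr5:120907520-120907549, minus strand: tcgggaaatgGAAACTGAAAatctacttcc
Irgm1, chr11:48871425-48871454, minus strand: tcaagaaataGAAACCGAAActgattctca

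With the first transcribed base at position 0, the matches began at -45 and -39 in Gbp3, at -59 in Gbp2, and at 2 and 19 in Ifitm3. The ISRE-like motif was in the promoter of 14 of the 31 members (45.2%), against 3.99% of all 27025 genes in the table and 3.44% of its 32851 promoters. It was in 3 of the 7 members called lower that have a promoter there (Gbp2, Gbp3 and Ifitm3), in 0 of the 2 called higher (Isg20 and Oasl1), and in 11 of the 22 not called. The GAS-like motif was in 13 of the 31 members (41.9%), against 9.55% of all genes and 8.30% of all promoters; it was in 1 of the 2 called higher (Isg20) and 3 of the 7 called lower. None of the 4 receptor chains held the ISRE-like motif. A match describes letters in a window and is not evidence of binding, and its absence says only that the letters are not in that window.

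Intensities were deposited as RMA values on a linear scale and were compared here as log2 intensity; a log2 change is the GFP-positive mean minus the GFP-negative mean, n = 3 arrays each. A gene was called where limma's adjusted p (Benjamini-Hochberg over all 45037 probe sets) was under 0.05. The signal of a probe set also depends on its sequence, so levels are not compared between genes. In bulk samples such as these, fewer cells of a type and less RNA per cell cannot be told apart.

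The sort was visible in the reporter gene's own transcript: Hes1 had a log2 intensity of 7.20, 7.12 and 7.13 in GFP-positive arrays, against 5.74, 6.01 and 5.90 in GFP-negative arrays (2.40-fold higher, adjusted p = 0.00141). Kit, on which all cells were sorted, was bright in both groups, with means of 11.17 in GFP-positive and 11.42 in GFP-negative arrays (adjusted p = 0.138). Jchain set a pair of arrays apart: this plasma cell gene read 8.65 in GFP-positive array 1 and 8.85 in GFP-negative array 3 but between 3.64 and 4.08 in the other 4. GFP-positive array 3 differed from its group in Prg2, an eosinophil granule gene, with 10.89 against 3.43 and 4.31 in GFP-positive arrays 1 and 2. Ighm, an immunoglobulin gene, did not set the same arrays apart, with 8.35, 7.69 and 7.87 in GFP-positive and 10.11, 9.79 and 9.91 in GFP-negative arrays. Results are also given without the 2 arrays with high Jchain signal, which leaves 2 arrays per group, and each call below was repeated with every single array left out.

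Summed linear signal of marker genes of other cells also differed between the groups. Such a sum is weighted to the brightest markers of its list. Monocyte and macrophage markers (9 of 12 measured) summed to 1846 to 3056 in GFP-positive and 7054 to 7580 in GFP-negative arrays, with 1 marker called higher and 4 lower, among them Csf1r. B and plasma cell markers (10 of 13) summed to 1548 to 2715 in GFP-positive and 4128 to 4986 in GFP-negative arrays. Of these, 2 were called lower, and the median log2 change of the 10 was -0.01. T and NK cell markers (10 of 12) summed to 3572 to 4905 in GFP-positive and 8384 to 8554 in GFP-negative arrays. The brightest of them, Nkg7, was the 1 called lower (log2 change -1.16), while the median log2 change of the 10 was 0.24. Of the 10, 7 lay below the median signal of the array, as did 7 of the 10 B cell markers. Markers of plasmacytoid dendritic cells, which make type I interferon (7 of 8), summed to 4605 to 5139 in GFP-positive and 5576 to 5990 in GFP-negative arrays. Of these markers, 1 was called higher and 1 lower, and the brightest, Tcf4, was not called (log2 change -0.29, adjusted p = 0.0990). Erythroid markers (6 of 8) ran the other way, with 17406 to 19002 in GFP-positive and 10600 to 11559 in GFP-negative arrays and 3 called higher. Granulocyte markers were uneven: neutrophil markers (6 of 8) summed to 6253 to 17513 in GFP-positive and 2751 to 7151 in GFP-negative arrays with none called by limma and 0 at an unadjusted p under 0.05, and eosinophil and basophil markers (5 of 7) to 1099 to 3725 in GFP-positive and 5831 to 6644 in GFP-negative arrays with 3 called lower. Of the markers of the sorted progenitors themselves (7 of 7), which summed to 34537 to 36925 in GFP-positive and 51744 to 54295 in GFP-negative arrays, 5 were called lower: Spi1 (log2 change -1.89), Cebpa (-1.57), Cd34 (-1.37), Mpo (-0.53) and Gata2 (-0.49). Stromal and endothelial markers (8 of 8) summed to 634 to 828 in GFP-positive and 662 to 710 in GFP-negative arrays, with 1 called higher and 1 lower, and 6 of them lay below the median signal. The part of these cell type differences in the results that follow was not tested.

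The interferon genes did not move as a block. In GFP-positive cells 2 members rose, the exonuclease gene Isg20 and the OAS-like gene Oasl1, and 10 fell: Mx1, Gbp3, Ifitm1, Gbp2, Ifnar1, Ifnar2, Ifitm3, Tap2, Parp14 and Dtx3l. The other 28 did not pass the test, 9 of them with an unadjusted limma p under 0.05 (Ifit1, Oasl2, Ifitm2, Ifitm6, Usp18, Bst2, Igtp, Samhd1 and Ifngr2). The 2 called higher are 5% of the 40 measured members, against a background of 8.15% of all genes called higher, and the 10 called lower are 25%, against 9.92% of all genes. In either direction 18.1% of all genes were called. The median log2 change was -0.29 over the members and 0.11 over all genes, and 29 of the 40 members were below 0. Without the receptor chains, 36 members remain, of which 2 were called higher and 8 lower, with a median of -0.29.

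By the separation of the arrays, 4 members had all 3 GFP-positive arrays above all 3 GFP-negative ones, which 28.9% of all genes did. Another 18 had all 3 below, which 16.7% of all genes did, and the remaining 18 overlapped. At the level of probe sets, 2 of the 67 were called higher and 11 lower, against 14.0% of all probe sets called in either direction. Of the 12 called members 5 have more than 1 probe set, and Gbp2 is the one in which every probe set was called. By the probe sets that stand for them, 39 of 40 members lay above the median signal of all probe sets, Mx2 being the exception. Of the 40, 25 were among the brightest 11260 probe sets. Taking the brightest probe set of each gene favours such a result, and the same shares over all genes were not taken. Other probe sets of members were dim, the lowest being 1 of Tap1 at percentile 1.36.

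**Figure D1:**
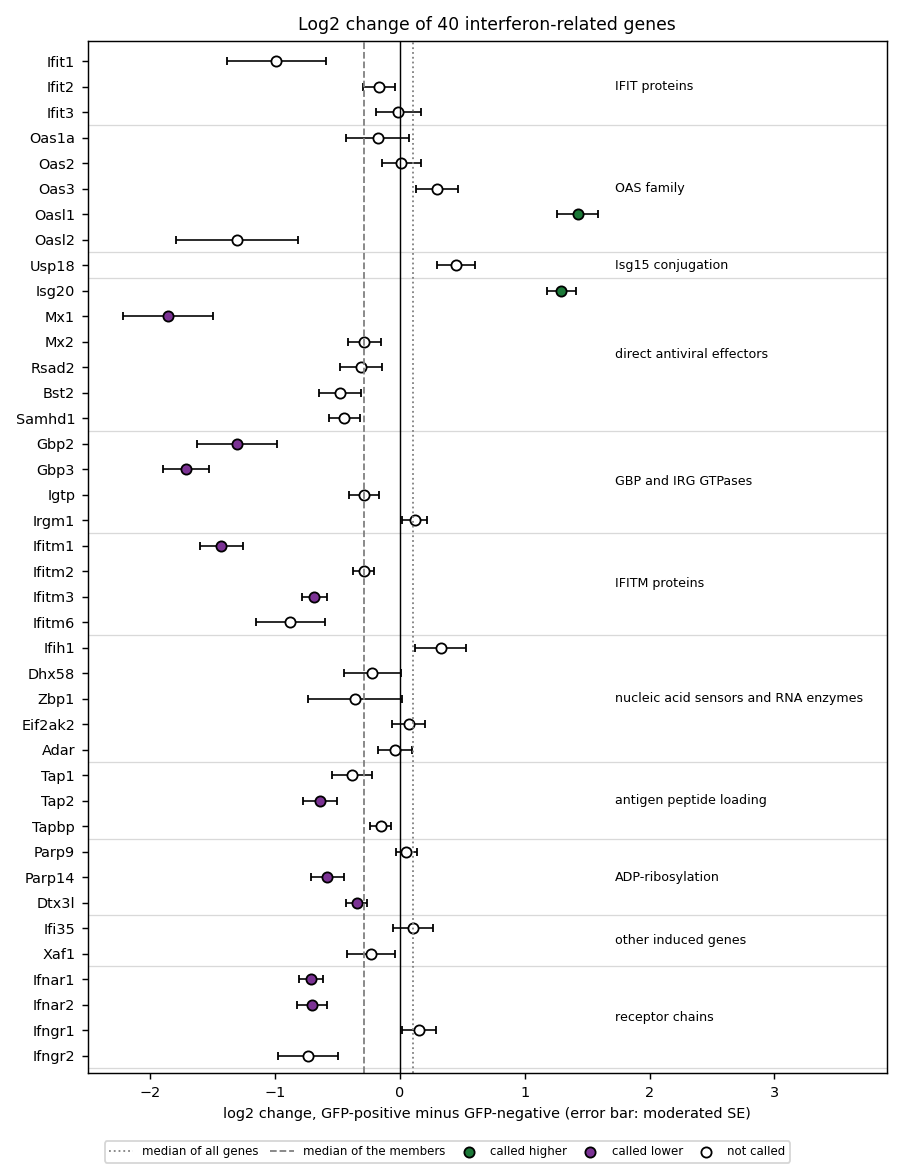
Log2 change of each measured member, GFP-positive minus GFP-negative, by role (points, with the moderated SE as error bar; n = 3 arrays per group). Filled points passed the test, 2 to the right of 0 (Oasl1 and Isg20) and 10 to the left; the dashed line is the median of the 40 members (-0.29) and the dotted line that of all 18193 genes (0.11).

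The 2 genes that rose belong to different roles. Isg20, a 3′ to 5′ exonuclease that degrades viral RNA, had a log2 intensity of 12.19, 12.11 and 12.12 in GFP-positive arrays, against 11.06, 10.73 and 10.74 in GFP-negative arrays. The 3 GFP-positive values lay close together and above every GFP-negative value. It rose by 1.29 on the log2 scale (SE 0.12, 2.45-fold, adjusted p = 0.00183). Oasl1, which in mouse is known to restrain translation of the interferon regulator Irf7, had 9.33, 9.75 and 9.61 in GFP-positive arrays, against 7.96, 8.41 and 8.06 in GFP-negative arrays. Its groups were also apart in every array, and the gene rose by 1.42 (SE 0.17, 2.68-fold, adjusted p = 0.00374). Both were called under every alternative that was run, with adjusted p of 0.0348 for Isg20 and 0.0351 for Oasl1 without the 2 arrays with high Jchain signal.

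The other 4 OAS members of the list, several of which sense double-stranded RNA and make oligoadenylates that switch on RNase L, did not follow Oasl1. None of the other 4 was called, and only Oasl2 had an unadjusted limma p under 0.05. Oas1a, whose promoter match is shown above, had a log2 change of -0.18 (adjusted p = 0.661) with overlapping groups, Oas2 one of 0.01 (adjusted p = 0.972) and Oas3 one of 0.30 (adjusted p = 0.271). Oasl2, the neighbour of Oasl1 in the gene family, had 7.15, 5.65 and 5.90 in GFP-positive arrays, against 7.70, 8.13 and 6.80 in GFP-negative arrays. GFP-positive array 1 was above GFP-negative array 3, so the groups overlapped, and the log2 change was -1.31 (SE 0.49, adjusted p = 0.127). Those are the 2 arrays with high Jchain signal; without them the log2 change of Oasl2 was -2.14 (adjusted p = 0.0243). Within an array, Oasl1 minus Oasl2 was 2.18, 4.10 and 3.72 in GFP-positive arrays, against 0.26, 0.28 and 1.26 in GFP-negative arrays, a difference of 2.73. An exact permutation test of that difference, two-sided, gave p = 0.1, which is the smallest that 3 against 3 arrays allow.

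The IFIT proteins, which bind foreign RNA and hold back its translation, are among the most often used readouts of type I interferon, and none of the 3 was called; only Ifit1 had an unadjusted limma p under 0.05. Ifit2, the brightest, had 8.86, 9.24 and 9.05 in GFP-positive arrays, against 9.31, 9.12 and 9.21 in GFP-negative arrays. The groups overlapped, with a log2 change of -0.17 (SE 0.13, adjusted p = 0.397). Ifit3 had a log2 change of -0.01 (SE 0.18, adjusted p = 0.973). Ifit1 had 5.31, 6.43 and 5.63 in GFP-positive arrays, against 7.49, 6.59 and 6.27 in GFP-negative arrays, with GFP-positive array 2 above GFP-negative array 3 and a log2 change of -0.99 (SE 0.40, adjusted p = 0.149). The promoters of Ifit1 and Ifit3 hold the motif shown above, those of Ifit2 in the table do not. Usp18, a protease that removes Isg15 from proteins and dampens signalling at Ifnar2, had 9.20, 9.36 and 9.22 in GFP-positive arrays, against 9.12, 8.63 and 8.68 in GFP-negative arrays. Its groups did not overlap, but the log2 change of 0.45 (SE 0.15) did not pass the test (adjusted p = 0.103); without GFP-negative array 1 it did (0.60, adjusted p = 0.0265).

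Among the other direct antiviral genes, Mx1 had the largest fall of all members. This GTPase traps viral nucleoproteins, and many laboratory strains of mice carry alleles that make no working protein. Mx1 had 6.46, 5.74 and 5.77 in GFP-positive arrays, against 8.49, 7.18 and 7.88 in GFP-negative arrays. All GFP-positive values were below all GFP-negative ones, but each group spread widely, and the gene fell by 1.86 on the log2 scale (SE 0.36, 3.63-fold lower, adjusted p = 0.0207). The call did not hold without GFP-positive array 2 (adjusted p = 0.0693), GFP-positive array 3 (0.0666) or GFP-negative array 3 (0.0714), nor without the 2 arrays with high Jchain signal (0.0909). Mx2, a related GTPase, was dim, with means of 3.57 in GFP-positive and 3.85 in GFP-negative arrays, and its log2 change of -0.28 was not called (adjusted p = 0.198).

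A further 3 antiviral genes were lower in the mean of GFP-positive cells without passing the test. In the probe set that stands for each, all GFP-positive arrays lay below all GFP-negative ones, as in 16.7% of all genes. Rsad2 (viperin), which makes a chain-terminating nucleotide, had the highest mean signal of this role, with 11.59, 11.02 and 11.53 in GFP-positive arrays, against 11.64, 11.66 and 11.78 in GFP-negative arrays (log2 change -0.31, SE 0.17, adjusted p = 0.255). The groups overlapped in its second brightest probe set (-0.14, adjusted p = 0.630), and its dimmest had a change of 0.08 (0.788). Bst2 (tetherin), which holds budding virions at the cell surface, had a log2 change of -0.48 (SE 0.17, adjusted p = 0.111). Samhd1, which depletes the deoxynucleotides that reverse transcription needs, had one of -0.45 (SE 0.12, adjusted p = 0.0629), and its second brightest probe set one of 0.01 (adjusted p = 0.963).

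**Figure D2:**
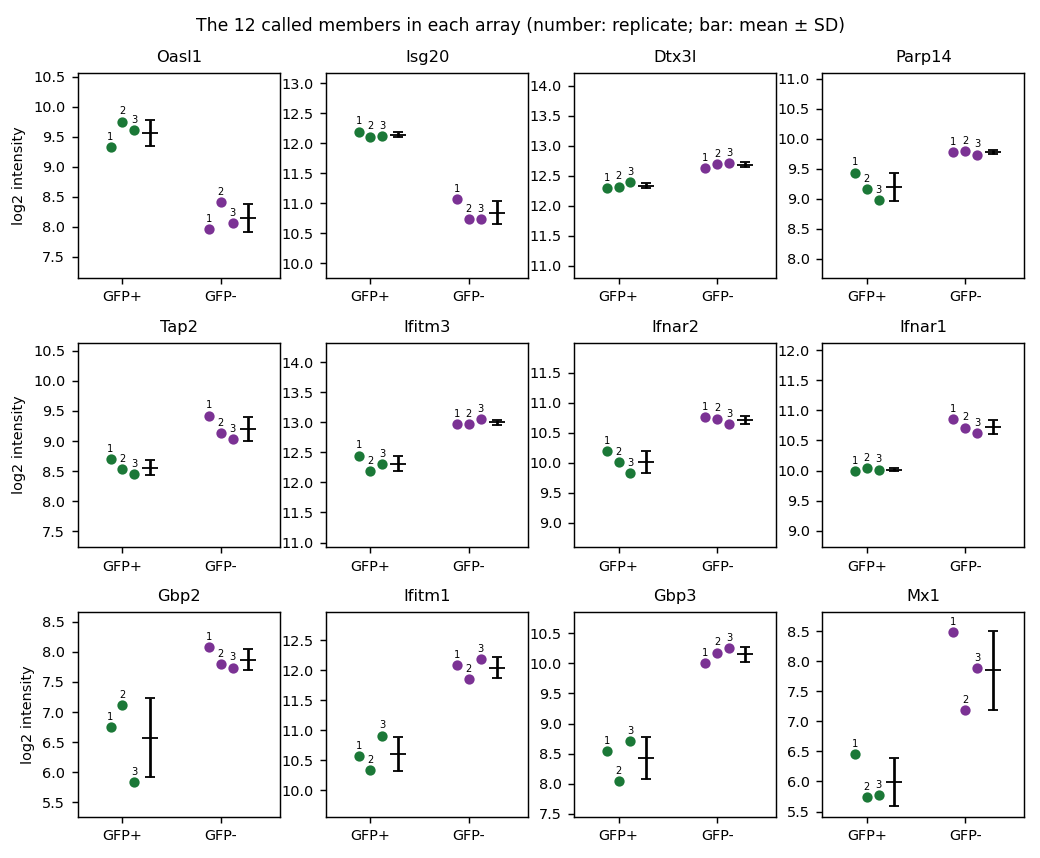
Log2 intensity of the 12 called members in each array, GFP-positive left of GFP-negative (points numbered by replicate; bar, mean ± SD, n = 3), on axes that all span the same number of log2 units. Oasl1 and Isg20 lie higher in all GFP-positive arrays and the other 10 lower in all of them, with the widest spread within a group in Mx1 and Gbp2.

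Both measured guanylate-binding protein genes of the list, Gbp3 and Gbp2, fell in GFP-positive cells. Their products are GTPases that interferon gamma induces strongly and that coat pathogen-containing vacuoles. Outside the members, 3 more genes of the family were measured and none was called: Gbp6 had a log2 change of -0.57 (adjusted p = 0.398), Gbp7 one of -0.08 (0.681) and Gbp8 one of 0.14 (0.454). Gbp3 had 8.55, 8.04 and 8.71 in GFP-positive arrays, against 10.01, 10.18 and 10.26 in GFP-negative arrays. All GFP-positive values were well below all GFP-negative ones, and Gbp3 fell by 1.71 (SE 0.19, 3.28-fold lower, adjusted p = 0.00298). It was called under every alternative, with an adjusted p of 0.0455 without the 2 arrays with high Jchain signal. Gbp2 had 6.75, 7.11 and 5.84 in GFP-positive arrays, against 8.08, 7.80 and 7.74 in GFP-negative arrays. The groups were apart, with GFP-positive array 3 lowest, and Gbp2 fell by 1.30 (SE 0.32, 2.47-fold lower, adjusted p = 0.0450). Its second probe set gave -1.82 (adjusted p = 0.0442). The Gbp2 call was close to the threshold and did not hold without GFP-positive array 1 (adjusted p = 0.0819), GFP-negative array 1 (0.111), GFP-negative array 2 (0.109) or GFP-negative array 3 (0.107), nor without the 2 arrays with high Jchain signal (0.167).

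The immunity-related GTPases of the list, which work beside the GBPs on vacuoles, were not called. Irgm1, a regulator of the others and the brightest member of this role that was not called, had 9.43, 9.34 and 9.28 in GFP-positive arrays, against 9.11, 9.28 and 9.30 in GFP-negative arrays. The groups overlapped, with a log2 change of 0.12 (SE 0.10, adjusted p = 0.448). Igtp had one of -0.29 (SE 0.12, adjusted p = 0.158). Their promoters hold an ISRE-like match as do those of Gbp2 and Gbp3. Genes of the same family outside the members were called lower. Irgm2 had a log2 change of -1.37 (adjusted p = 0.00182), Iigp1 one of -0.91 (0.0268) and Ifi47 one of -0.71 (0.00523). Of the 2 probe sets of Iigp1, 1 was called.

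The IFITM proteins are small membrane proteins that block the fusion of entering viruses. All 4 members had every GFP-positive array below every GFP-negative array, as did 16.7% of all genes, and 2 of the 4 passed the test. No other role had this in all its members, but the direct antiviral effectors had it in 5 of 6, with Isg20 the exception. Ifitm1 had 10.58, 10.34 and 10.91 in GFP-positive arrays, against 12.09, 11.85 and 12.18 in GFP-negative arrays. It fell by 1.43 (SE 0.17, 2.70-fold lower, adjusted p = 0.00405). Ifitm3 had 12.45, 12.19 and 12.30 in GFP-positive arrays, against 12.97, 12.97 and 13.05 in GFP-negative arrays. It fell by 0.69 (SE 0.10, 1.61-fold lower, adjusted p = 0.00815). Both calls held with each single array left out and missed the threshold without the 2 arrays with high Jchain signal (adjusted p = 0.0601 for Ifitm1 and 0.0515 for Ifitm3). Ifitm2 had a log2 change of -0.29 (SE 0.09, adjusted p = 0.0740), and Ifitm6 one of -0.88 (SE 0.28, adjusted p = 0.0876). The 4 genes are close relatives, and signal that their probe sets may share was not tested.

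By the probe sets that stand for them, none of the 5 sensors and RNA enzymes was called or had an unadjusted limma p under 0.05. The groups overlapped in all 5. Eif2ak2 (PKR), the kinase that stops translation when it binds double-stranded RNA, was the brightest, with 11.01, 10.76 and 10.85 in GFP-positive arrays, against 10.96, 10.60 and 10.86 in GFP-negative arrays. Its log2 change was 0.07 (SE 0.13, adjusted p = 0.749). Adar, which edits double-stranded RNA, had a change of -0.04 (SE 0.13, adjusted p = 0.859). The dimmer probe sets of Adar disagreed, with changes of 0.27 (adjusted p = 0.415) and -0.70 (0.119). Dhx58 (LGP2), a helicase that tunes RNA sensing, had one of -0.22 (SE 0.23, adjusted p = 0.539), and Zbp1, a sensor of left-handed nucleic acid, one of -0.36 (SE 0.38, adjusted p = 0.552). Ifih1 (MDA5), a sensor of long double-stranded RNA, had one of 0.33 (SE 0.20, adjusted p = 0.321), and it was called higher without GFP-negative array 1 (0.56, adjusted p = 0.0352).

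Of the genes that load peptides onto MHC class I, Tap2 fell. Tap1 and Tap2 form the transporter that brings peptides into the endoplasmic reticulum, and tapasin (Tapbp) bridges it to class I molecules. Tap2 had 8.70, 8.54 and 8.45 in GFP-positive arrays, against 9.42, 9.14 and 9.03 in GFP-negative arrays. The groups were apart, and Tap2 fell by 0.64 (SE 0.13, 1.56-fold lower, adjusted p = 0.0277). This call did not hold without GFP-positive array 2 (adjusted p = 0.0841), GFP-positive array 3 (0.0852), GFP-negative array 1 (0.0517) or GFP-negative array 2 (0.0747), nor without the 2 arrays with high Jchain signal (0.0699). Its partner Tap1 had 10.40, 9.88 and 10.03 in GFP-positive arrays, against 10.65, 10.36 and 10.45 in GFP-negative arrays. GFP-positive array 1 overlapped the GFP-negative range, and the change of -0.38 (SE 0.16) was not called (adjusted p = 0.164). Tapbp, bright in all arrays (13.11, 13.01 and 13.02 in GFP-positive, against 13.19, 13.20 and 13.21 in GFP-negative), had a change of -0.16 (SE 0.08, adjusted p = 0.257).

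The transporter genes share their locus with the immunoproteasome genes Psmb8 and Psmb9, which were named after their values were seen. In RefSeq the starts of Psmb9 and Tap1 lie 226 bases apart on opposite strands. Psmb9 fell by 0.95 (SE 0.16, adjusted p = 0.0133) and Psmb8 by 1.23 (SE 0.18, adjusted p = 0.00816). Of the 2 probe sets of Psmb8, 1 was called. Within an array, Psmb9 minus Tap1 was 0.77, 0.75 and 0.80 in GFP-positive arrays, against 1.34, 1.41 and 1.27 in GFP-negative arrays. The 3 values of a group lay close together and the groups were apart, with a difference of -0.56. Psmb8 minus Tap2 was 2.61, 2.10 and 2.61 in GFP-positive arrays, against 2.95, 3.02 and 3.13 in GFP-negative arrays, a difference of -0.59.

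The ADP-ribosylation genes, whose products attach ADP-ribose to proteins in interferon-treated cells, differed within the role. Parp14 had 9.44, 9.16 and 8.98 in GFP-positive arrays, against 9.78, 9.80 and 9.74 in GFP-negative arrays. It fell by 0.58 (SE 0.13, 1.50-fold lower, adjusted p = 0.0364), while its second, dimmer probe set had a change of 0.17 (adjusted p = 0.659). The call held without GFP-positive array 1 (adjusted p = 0.0172) but not without any other single array (0.104 and 0.0862 without GFP-positive arrays 2 and 3, and 0.0832, 0.109 and 0.100 without GFP-negative arrays 1, 2 and 3), nor without the 2 arrays with high Jchain signal (0.0599). Dtx3l, a ubiquitin ligase, had 12.30, 12.32 and 12.39 in GFP-positive arrays, against 12.63, 12.70 and 12.71 in GFP-negative arrays. It fell by 0.35 (SE 0.09, 1.27-fold lower, adjusted p = 0.0448), the smallest change of any called member. Leaving out any single array ended the call (adjusted p from 0.0698 with GFP-negative array 1 out up to 0.140 with GFP-negative array 3 out), as did leaving out the 2 arrays with high Jchain signal (0.216).

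Parp9, which works as a complex with Dtx3l, had 9.41, 9.37 and 9.46 in GFP-positive arrays, against 9.36, 9.33 and 9.39 in GFP-negative arrays. The groups overlapped and the change was 0.05 (SE 0.08, adjusted p = 0.706). Within an array, Dtx3l minus Parp9 was 2.89, 2.95 and 2.93 in GFP-positive arrays, against 3.27, 3.37 and 3.32 in GFP-negative arrays, a difference of -0.40. In all, 6 such pairs of genes were compared within arrays. They were Oasl1 with Oasl2, Psmb9 with Tap1, Psmb8 with Tap2, Dtx3l with Parp9, and each type I receptor chain with Ifngr1. Each gave p = 0.1 by the two-sided exact permutation test, the smallest possible, so none can pass a threshold of 0.05. The pairs were not among the planned comparisons. All but Psmb8 with Tap2 set a called gene against one not called, so their separation adds no support to the calls. Of the remaining induced genes, Ifi35, which binds the signalling protein Nmi, had 12.04, 11.56 and 11.62 in GFP-positive arrays, against 11.62, 11.81 and 11.48 in GFP-negative arrays, with a change of 0.10 (adjusted p = 0.696). Xaf1, an antagonist of a caspase inhibitor, had one of -0.23 (adjusted p = 0.448).

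Both chains of the type I receptor fell in GFP-positive cells. Ifnar1 had 9.99, 10.04 and 10.01 in GFP-positive arrays, against 10.85, 10.71 and 10.62 in GFP-negative arrays. The GFP-positive values lay close together and below every GFP-negative one, and Ifnar1 fell by 0.71 (SE 0.10, 1.64-fold lower, adjusted p = 0.00639). Ifnar2 had 10.20, 10.01 and 9.83 in GFP-positive arrays, against 10.76, 10.74 and 10.64 in GFP-negative arrays. It fell by 0.70 (SE 0.12, 1.63-fold lower, adjusted p = 0.0137). The Ifnar1 call held with each array left out and missed the threshold without the 2 arrays with high Jchain signal (0.0508); the Ifnar2 call did not hold without GFP-negative array 2 (0.0545). The dimmer probe sets of the chains were not called: that of Ifnar1 had a change of -0.63 (adjusted p = 0.0838), and those of Ifnar2 changes of -0.37 (0.524) and -0.54 (0.115).

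The interferon gamma receptor was not called in either chain. Ifngr1, the ligand-binding chain, had 10.87, 10.72 and 10.64 in GFP-positive arrays, against 10.82, 10.54 and 10.42 in GFP-negative arrays. The groups overlapped, with a change of 0.15 (SE 0.14, adjusted p = 0.483). Ifngr2 had 7.38, 7.22 and 7.16 in GFP-positive arrays, against 8.55, 7.70 and 7.72 in GFP-negative arrays. All GFP-positive values of Ifngr2 were below all GFP-negative ones, with GFP-negative array 1 above the other arrays. The change of -0.74 (SE 0.24) did not pass the test (adjusted p = 0.0938). Its second probe set had one of -0.32 (adjusted p = 0.201). With the mean of all its probe sets, Ifngr2 was called lower (adjusted p = 0.0458). Within an array, Ifnar1 minus Ifngr1 was -0.88, -0.68 and -0.62 in GFP-positive arrays, against 0.03, 0.18 and 0.19 in GFP-negative arrays. For Ifnar2 minus Ifngr1 the values were -0.68, -0.71 and -0.81 in GFP-positive arrays, against -0.06, 0.20 and 0.22 in GFP-negative arrays, so that both type I chains were lower relative to Ifngr1 in all GFP-positive arrays. They were not compared in this way with Ifngr2, whose change of -0.74 was close to those of Ifnar1 (-0.71) and Ifnar2 (-0.70).

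**Figure D3:**
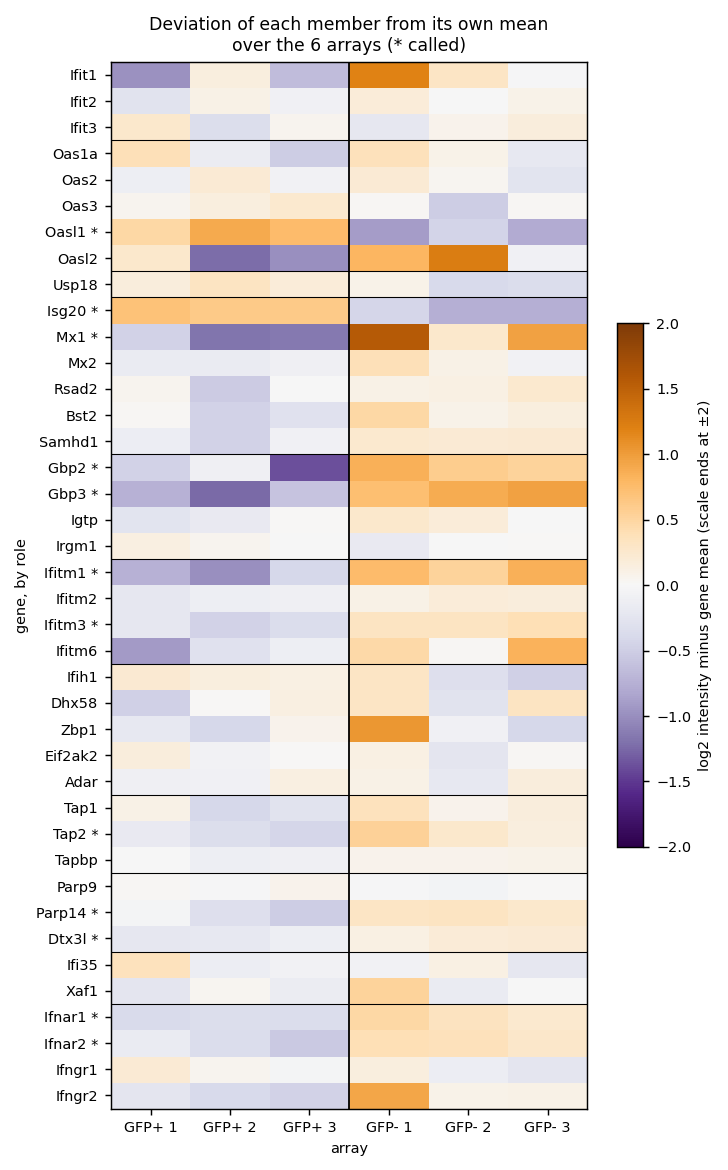
Deviation of each measured member (rows, by role; asterisks mark called members) from its own mean over the 6 arrays, in log2 units, with GFP-positive arrays left of GFP-negative arrays. GFP-negative array 1 is the highest of its group in 22 of the 40 rows, and Oasl1 and Isg20 run against the other called rows.

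The members also varied between arrays of the same group. The median deviation of the 40 members from their own means was -0.12, -0.15 and -0.10 in GFP-positive arrays 1, 2 and 3, against 0.30, 0.08 and 0.09 in GFP-negative arrays 1, 2 and 3. GFP-negative array 1 was the highest of its group in 22 of the 40 members (55%) and in 48.0% of all genes. Without it, the median change of the members was -0.20, with 4 called higher (Isg20, Oasl1, Usp18 and Ifih1) and 6 lower. Without the 2 arrays with high Jchain signal the median was -0.34, with 2 called higher (Isg20 and Oasl1) and 3 lower (Gbp3, Ifnar2 and Oasl2). In all, 6 of the 12 called members were called with each 1 array left out (Isg20, Oasl1, Gbp3, Ifitm1, Ifitm3 and Ifnar1), and all 12 kept their sign under every alternative.

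Other genes of the pathway were taken from 4 lists. Of 18 measured signalling genes (19 listed), 4 fell and none rose by limma's test, with a median of -0.10; of the 7 above 0, 1 (Socs1) had an unadjusted p under 0.05. Those called lower are 22.2% of the list, against 9.92% of all genes. The 4 were Irf8, the monocyte and dendritic cell regulator (9.57 ± 0.27 in GFP-positive and 11.99 ± 0.02 in GFP-negative arrays, mean ± SD, n = 3 each; fell by 2.42, adjusted p = 0.00108), Irf1, an activator at ISREs (8.10 ± 0.16 in GFP-positive and 9.70 ± 0.08 in GFP-negative arrays; fell by 1.59, adjusted p = 0.00118), Stat3 (fell by 1.11, adjusted p = 0.00621) and the phosphatase Ptpn6 (fell by 0.50, adjusted p = 0.0405). For Ptpn6, leaving out any single array ended the call (adjusted p between 0.0547 without GFP-positive array 1 and 0.111 without GFP-negative array 2), as did leaving out the 2 arrays with high Jchain signal (0.0991). Of the 4 probe sets of Stat3 and the 2 of Ptpn6, 1 each was called lower. Of the 2 probe sets of Jak2, the dimmer 1 was called higher. The remaining parts of the type I signalling complex were not called: Jak1 had a change of 0.07 (adjusted p = 0.687), Tyk2 one of -0.38 (0.119), Stat2 one of -0.08 (0.803) and Irf9 one of 0.10 (0.626). Irf7, whose translation Oasl1 is known to restrain in mouse, had one of 0.52 (adjusted p = 0.195).

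Among 8 measured interferon genes (12 listed), the median change was 0.24. Of the 8, 1 fell (12.5%, against 9.92% of all genes called lower), Ifnz (limitin, a type I interferon), by 0.56 (adjusted p = 0.0305), a call that did not hold without GFP-positive array 1 (0.0736), GFP-positive array 2 (0.0919), GFP-negative array 2 (0.102) or GFP-negative array 3 (0.105), nor without the 2 arrays with high Jchain signal (0.185). Ifnb1, interferon beta, averaged 3.57 in GFP-positive and 3.38 in GFP-negative arrays (adjusted p = 0.305), and Ifng, interferon gamma, 4.15 in GFP-positive and 3.85 in GFP-negative arrays (adjusted p = 0.360). Of 11 measured genes of interferon production (15 listed), 2 fell (18.2%, against 9.92% of all genes), with a median of -0.58: Tlr7, an endosomal sensor of single-stranded RNA (4.22 ± 0.15 in GFP-positive and 7.22 ± 0.28 in GFP-negative arrays; fell by 3.00, adjusted p = 0.000936), and the kinase Ikbke (fell by 1.27, adjusted p = 0.00391; 0.0584 without the 2 arrays with high Jchain signal). One of the 3 probe sets of Tlr7 was called.

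Of 58 measured further interferon-stimulated genes (67 listed), 4 rose and 15 fell, with a median of -0.24. Those called higher are 6.90% of the list, against 8.15% of all genes, and those called lower 25.9%, against 9.92%. Among these, the nuclear protein gene Mndal fell by 1.96 (adjusted p = 0.00197), Ifi27l2a fell by 1.73 (adjusted p = 0.00348), Tor3a fell by 1.64 (adjusted p = 0.00186) and Epsti1 fell by 1.40 (adjusted p = 0.00462). The 4 that rose were the lysosomal reductase Ifi30 (0.77, adjusted p = 0.0140), the Isg15-conjugating enzyme Ube2l6 (0.68, adjusted p = 0.0494), the mitochondrial RNA enzyme Pnpt1 (0.61, adjusted p = 0.00793) and Pml, which builds nuclear bodies (0.52, adjusted p = 0.0168). Ifi30 was not called without GFP-negative array 3 (0.0572), Pml not without GFP-positive array 2 (0.0590) or GFP-negative array 3 (0.0687), and Ube2l6 was called only without GFP-positive array 1 (0.0202). None of these 4 was called without the 2 arrays with high Jchain signal (0.121 for Ifi30, 0.0652 for Ube2l6, 0.0843 for Pnpt1 and 0.131 for Pml). Pnpt1 and Pml have 3 probe sets each, of which 1 each was called.

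**Figure D4:**
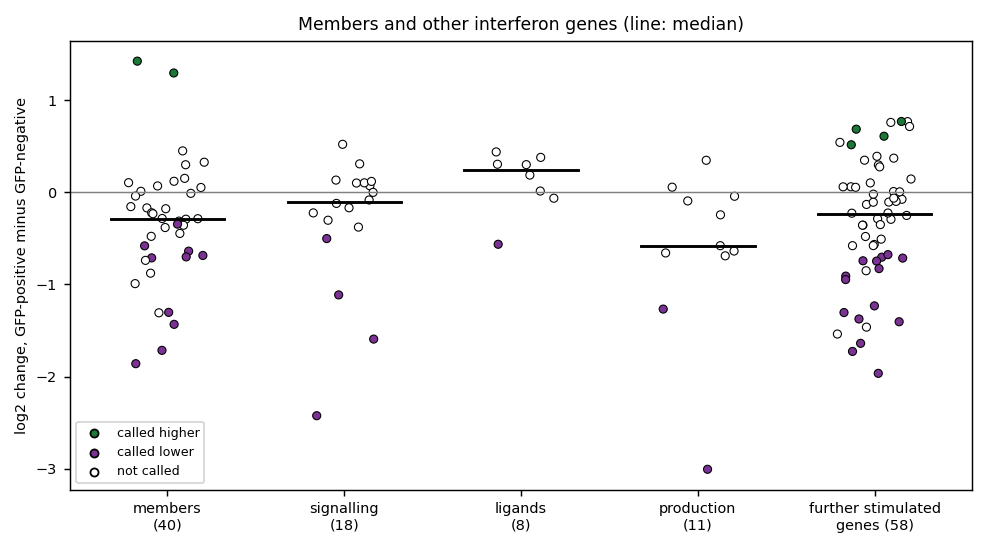
Log2 change, GFP-positive minus GFP-negative, of the 40 members and of 4 lists of other interferon genes (each point a gene, filled where called; line, median of the list; sideways position has no meaning). Tlr7 and Irf8 lie lowest, and the medians are -0.29 for the members, -0.10 for signalling, 0.24 for ligands, -0.58 for production and -0.24 for further stimulated genes.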

How the data were processed

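RNA of 6 samples was measured on 1-colour arrays. The authors deposited probe set intensity values made with RMA, per the submitters' processing notes, on a linear scale (4.27 to 24551); for RMA's version and settings, and for the way back from its log scale, the sources used here give nothing. Values were taken to log2 with no further normalization. Of 45101 probe sets, 64 controls were left out. Genes were named from the platform annotation (1 gene for 34945 tested probe sets, several for 932, none for 9160), and 34741 names matched RefSeq of GRCm38.p6 by gene ID.

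The 2 groups were fitted without covariates by limma 3.58.1 (lmFit and eBayes under R 4.3.3, two-sided), and p-values of all 45037 probe sets were adjusted together by Benjamini-Hochberg; the code was tested on simulated data. The number of arrays limits the precision. Lists (interferon signalling, ligands, production, further stimulated genes, and markers of 9 cell types) are described by counts and medians. Every member is named, with values by array for called members and the brightest of each role; list genes are up to 4 per direction with the largest change among those called, and a few named after their values were seen. The members and lists were chosen with earlier results of these data known. Ly6a is not used here.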

Additional observations from a re-analysis of the deposited data

How the results depend on the processing

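Whether the replicate numbers pair the arrays is not known. Correlations of deviations between arrays of the 2 groups ran from -0.043 to 0.055. Each GFP-positive array correlated most with the GFP-negative array of its own number (0.023, 0.055 and 0.019 for replicates 1, 2 and 3). Values this small neither show nor exclude pairing. The main fit used no block. With a replicate block, 2 members were called higher and 8 lower, and 1969 probe sets higher and 2872 lower. Without a block, 2860 probe sets were called higher and 3452 lower; with each array's median subtracted the split was 5218 higher and 3267 lower. With only the brightest 11260 probe sets tested, 2396 were called higher and 1893 lower. Against a fold floor of 1.2 (limma's treat), 1023 were higher and 2074 lower, with 5 members lower. Without the 2 arrays with high Jchain signal, 681 were higher and 1652 lower, with 3 members lower. With 1 array left out, 1212 to 2243 were higher and 2192 to 3098 lower, with 2 to 4 members higher, 5 to 8 lower and a median from -0.35 to -0.20. Averaging all probe sets of a gene gave a median of -0.19. Fewer arrays or probe sets enter several of these; the cause of the other shifts was not tested. Of 584 values of single members under the alternatives, 531 kept their side of the threshold, 17 passed it, 36 no longer did, and no called value reversed. The 531 include values of the 8 members not called that changed sign somewhere. Dtx3l was not called with array medians subtracted (adjusted p = 0.0844) or with the replicate block (0.0791), nor Gbp2 (0.0594) and Parp14 (0.0619) with the block. Bst2 was called lower with the block (0.0465). Gbp2 was not called with quantile normalization repeated (0.0616). With the probe set of highest variance, Ifnar1, Ifnar2 and Dtx3l were not called. With the mean of all probe sets Ifnar2 (0.0752), Parp14 (0.382) and Dtx3l (0.0519) were not called, while Ifngr2 was called lower (0.0458). No detection calls were used, so dim probe sets such as that of Mx2 carry no separate statement of background.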
